A study of Drosophila melanogaster with 249 samples.

Results

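The core circadian clock of Drosophila melanogaster was followed here through 8 genes, chosen by name from the 17142 genes of the head expression table. They were period (per, FBgn0003068), timeless (tim, FBgn0014396), vrille (vri, FBgn0016076), PAR-domain protein 1 (Pdp1, FBgn0016694), clockwork orange (cwo, FBgn0259938), Clock (Clk, FBgn0023076), cryptochrome (cry, FBgn0025680) and cycle (cyc, FBgn0023094). All 8 were measured in every library, and the lowest raw count of any of them was 2 reads, for Clk. In the BDGP6 annotation per lies on the X chromosome, tim and vri on 2L, Pdp1, Clk and cyc on 3L, and cwo and cry on 3R.

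Poly-A+ RNA was sequenced from pools of 10 heads of 5-d-old adults grown at 25°. The groups were XX females transformed into males by tra2B over Df(2R)trix (tra2 XX), tra2 XY males of the w1118 line with the same tra2 alleles, XX females and XY males. Each deficiency (Df) of the DrosDel collection was carried over a chromosome without the Df. There were 19 X Df lines, as Df(1)/w1118 in tra2 XX and XX, and 11 3L Df lines, as Df(3L)/+ in tra2 XX, XX and XY. The labels of the 3L Df lines give the X chromosomes as w1118/w1118 in tra2 XX and do not name them in XX and XY. Lines with no Df were w1118, OreR (given in the labels as w+/w+ and w+/Y) and the cross w+/w1118. A condition is 1 line in 1 karyotype, and the libraries analysed fell into 79 conditions: 32 of tra2 XX (96 libraries), 33 of XX (97), 13 of XY (39) and 1 of tra2 XY (3). The tra2 XX flies came from other crosses than the XX flies and carried different second chromosomes, so the tra2 alleles, the cross and the second chromosome cannot be told apart. Each line was 1 stock, and the triplicates of a condition were heads of flies collected together, so p-values measure only the spread between these samples, which may be technical.

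Library depth, as reads on genes, lay between 667146 and 18679735, with a median of 5691607 for tra2 XX, 8859704 for XX and 10022543 for XY libraries. Counts of 233 replicate pairs all differed by more than sampling noise, the closest pair with a chi-square of 2.97 per degree of freedom. Neuron markers were detected in every condition. In whole heads, fewer cells of a type and less RNA per cell cannot be told apart.

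The fly clock is a loop of transcription and repression. CLK and CYC form the activator that switches on per, tim, vri, Pdp1 and cwo around dusk, and PER and TIM return to the nucleus at night and block it. VRI represses and PDP1 activates Clk, CWO competes with the activator for its binding sites, and CRY is the blue light receptor that leads to TIM breakdown. In flies under a light and dark cycle, per, tim, vri, Pdp1 and cwo transcripts therefore peak from evening to early night, Clk and cry transcripts peak in the opposite phase toward dawn, and cyc is nearly flat. The sources used here give neither the time of day nor the light regime at collection, so the part of collection time in the values was not tested.

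Per length, Pdp1, cry and tim were the most abundant clock transcripts in XX heads, vri followed, cyc, cwo and per were lower, and Clk was lowest. The median over the 33 XX conditions was 90.4 FPKM for Pdp1, 84.4 for cry, 79.8 for tim, 39.3 for vri, 19 for cyc, 17.4 for cwo, 11.9 for per and 7.14 for Clk. Standard deviations (SD) between conditions were 16.7, 11.3 and 20.3 FPKM for Pdp1, cry and tim, so these neighbours in the order did not differ beyond their spread. Neither did cyc and cwo, with SDs of 2.16 and 4.26 FPKM. In tra2 XX, cry led with a median of 109 FPKM, ahead of Pdp1 at 70.9 and tim at 58.2. In XY the order began with Pdp1 at 119, tim at 104 and cry at 90.2 FPKM.

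**Figure D1:**
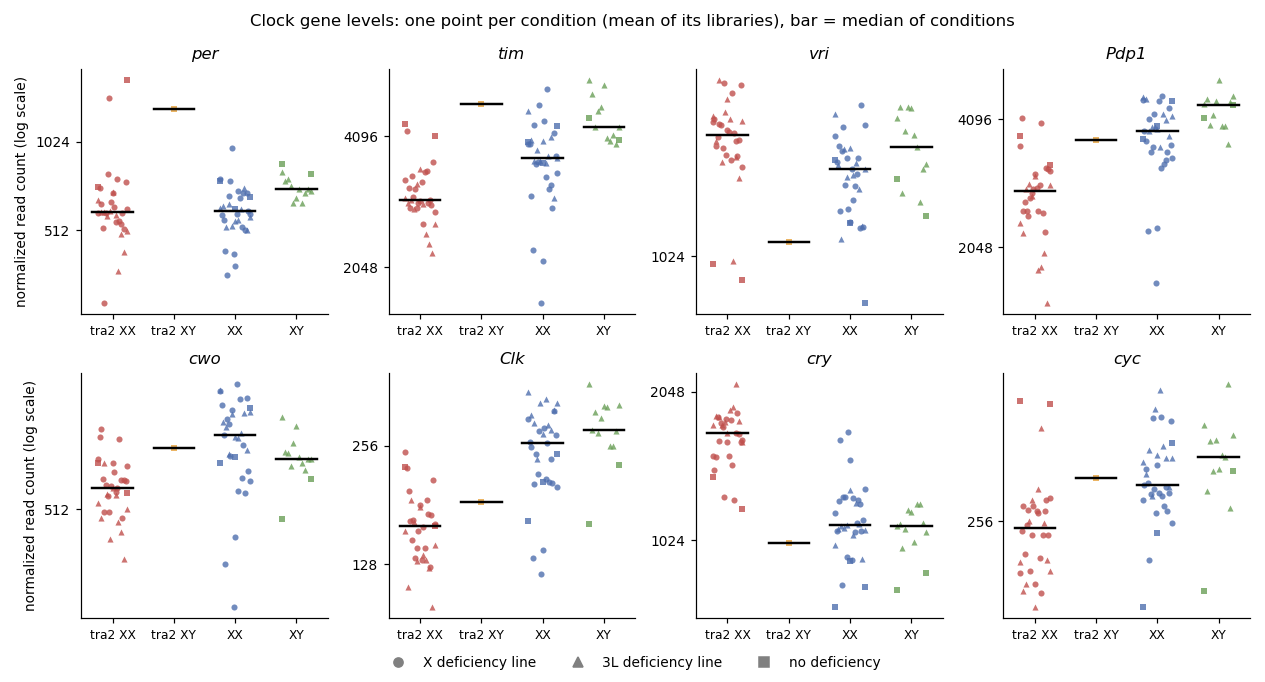
Normalized read counts of the 8 clock genes on log axes, with 1 point for each condition (mean of its libraries), circles for X Df lines, triangles for 3L Df lines and squares for lines without a Df. Black bars are medians of conditions. Clk points of tra2 XX lie mostly below those of XX (medians 159 and 260), cry points mostly above (1690 and 1098), and a few per points of tra2 XX reach 1661.

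The genes differed in how much they varied between lines. Clk, an activator gene, varied most in XX, where condition means ran from 121 to 350 normalized read counts (median 260), with a between-condition SD of 0.396 on the log2 scale. For tim the range was 1696 to 5260 (median 3650, SD 0.341), for Pdp1 1690 to 4641 (median 3840, SD 0.327) and for cwo 325 to 916 (median 723, SD 0.344). The least variable was cyc, from 216 to 332 (median 275, SD 0.125), and 97.0% of 9307 expressed genes varied more. The median gene had an SD of 0.284, so that vri (0.212) and cry (0.257) were below it and per (0.296) near it. Spread between replicates was of similar size, with SDs within conditions of 0.400 for Clk, 0.316 for tim and 0.149 for cyc in XX.

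Whether a gene's level differed between the lines of 1 karyotype was tested against the spread of replicates with edgeR's quasi-likelihood F test, with Benjamini-Hochberg adjustment over all genes and an adjusted p under 0.05 as the threshold. In XX all 8 genes passed, where 72.7% of all genes did. In tra2 XX 5 passed (per, tim, vri, cry and cyc), against 56.3% of all genes. The F of per was 15.87 there (adjusted p = 2.2e-18), and 0.167% of genes had a larger one. In XY Clk alone passed (F = 3.75, adjusted p = 0.0107), against 22.4% of all genes. Without replicate 3 the count was 3 in XX, where 2952 of 10388 genes passed. Without replicates 2 or 3 it was 2 and 3 in tra2 XX, where 1264 of 9602 and 2703 of 9544 genes did. In XY it was 0, 2 and 0 without replicates 1, 2 and 3, where 613 of 10460, 1971 of 10510 and 413 of 10480 genes did. It was 6 in XY without the shallowest libraries, where 3828 of 10659 genes did. Over the Df lines alone it was 2 in tra2 XX and 0 in XY, where 2984 of 9496 and 669 of 10249 genes did.

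The largest line effect belonged to per, the X-linked repressor gene. Its lowest level in both XX karyotypes was in Df(1)ED6630/+, with 291, 281 and 300 normalized read counts in tra2 XX and 472, 360 and 254 in XX. The medians of all conditions were 590 in tra2 XX and 598 in XX. Relative to the other lines the log2 ratio was −1.01 in tra2 XX and −0.77 in XX. Low per came with low neighbours on 1 side only. Of the 10 expressed genes on the higher-coordinate side of per, all 10 fell below a log2 ratio of −0.5 in tra2 XX (median −1.04) and 6 in XX (median −0.78). The 10 genes on the other side had medians of 0.06 in tra2 XX and −0.00 in XX, with 1 and 0 of them below −0.5. In this line per thus stood at the edge of a run of lowered genes, and its own log2 ratio was near the median of that run. None of the other 7 genes was at its lowest in a line where most of its 20 neighbours were below −0.5. In Df(1)ED6878/+ XX, an X Df condition, 12 of the 20 neighbours of vri on 2L were below −0.5 (median −0.73). There vri itself was at −0.20.

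High per occurred elsewhere. In Df(1)ED6829/+ it was at 1383, 1457 and 1493 normalized read counts in tra2 XX and at 1099, 877 and 950 in XX, the highest of the Df lines in both. As a group the 20 neighbouring genes were not raised with it, with side medians of 0.07 and 0.05 in tra2 XX and 0.26 and 0.02 in XX, where per was at 1.3 and 0.73. The highest neighbour on each side was at 0.34 and 0.59 in tra2 XX, below per, and at 1.12 and 0.82 in XX, above it. In w1118 heads per was higher still with the tra2 alleles. It reached 1637, 1831 and 1514 normalized read counts in w1118 tra2 XX, against 709, 612 and 671 in w1118 XX. In w1118 tra2 XY it was at 1027, 1536 and 1393, against 757, 791 and 847 in w1118 XY. The tra2 libraries and those without the tra2 alleles did not overlap in either karyotype, and tra2 XY over XY was not tested. In the cross w+/w1118 per was at 674, 730 and 753 in tra2 XX and at 646 and 564 in XX, a smaller gap, also without overlap and not tested. With so few libraries a lack of overlap is weak evidence, and the share of all genes without overlap was not counted.

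**Figure D2:**
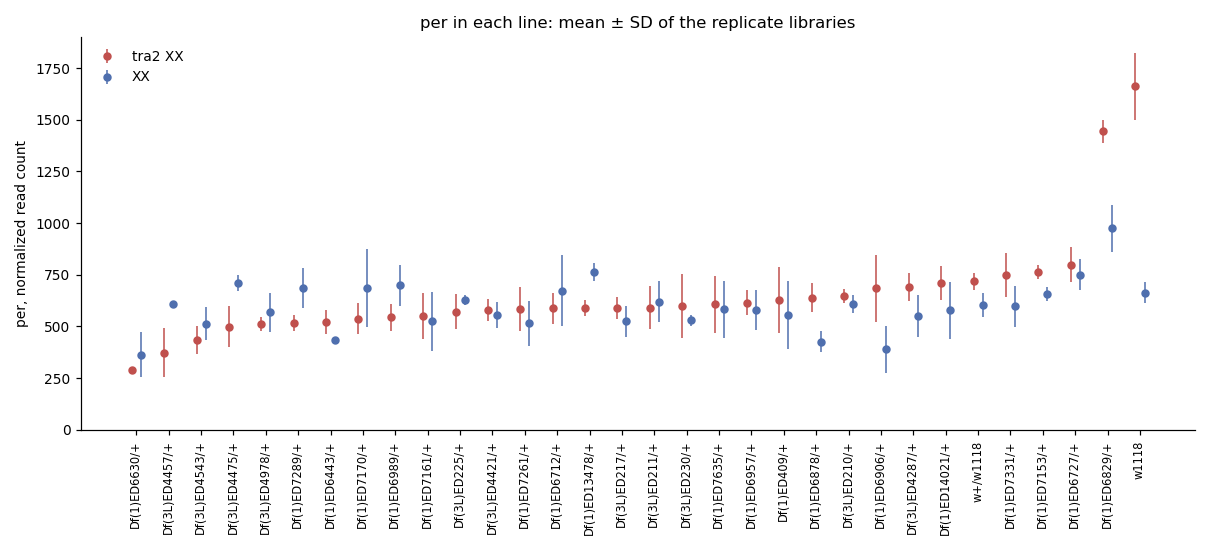
Mean normalized read count of per with the SD of its replicate libraries for each line, tra2 XX to the left of XX. Lines are ordered by tra2 XX, from Df(1)ED6630/+ at 291 to w1118 at 1661, and the medians of all conditions are 590 in tra2 XX and 598 in XX.

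How the clock genes differed between transformed and untransformed XX heads was asked first in the 11 3L Df lines, with replicates summed and the line as a block. Clk, Pdp1, cwo, tim and cyc were lower in tra2 XX, cry and vri were higher, and per did not pass. That is 7 of the 8 genes, 2 higher and 5 lower, where 69.1% of all genes passed, 34.5% higher and 34.6% lower. Clk condition means were 99.6 to 186 normalized read counts in tra2 XX (median 135) and 237 to 350 in XX (median 307). No tra2 XX condition reached the lowest XX condition. Clk changed by −1.0 ± 0.07 on the log2 scale (SE, with an adjusted p of 3.3e-12 from edgeR), and it was lower in 11 of 11 lines. A larger change was seen in 12.5% of genes.

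The light receptor gene cry went the other way. It was at 1618 to 2123 normalized read counts in tra2 XX (median 1785) and at 940 to 1297 in XX (median 1084), again without overlap. Its log2 fold change was 0.76 ± 0.05 (adjusted p = 2.9e-13, edgeR), and it was higher in 11 of 11 lines. The activator gene of the second loop, Pdp1, was at 1518 to 3019 in tra2 XX and 3523 to 4608 in XX, a log2 change of −0.69 ± 0.08. The repressor gene cwo was at 406 to 635 in tra2 XX and 662 to 890 in XX, with −0.50 ± 0.05. Both were lower in all 11 lines and did not overlap between the karyotypes. The share of all genes without overlap in this comparison was not counted. For tim the ranges 2204 to 3449 in tra2 XX and 2960 to 4679 in XX overlapped, and the log2 fold change was −0.39 ± 0.05, lower in 11 of 11 lines.

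The remaining changes were small. vri rose by 0.24 ± 0.08 (adjusted p = 0.00839, edgeR) in 8 of 11 lines, and this call was lost without replicate 2, at 0.12. cyc was lower in 10 of 11 lines, at −0.20 ± 0.04 (adjusted p = 1.0e-04, edgeR). per was at −0.02 ± 0.07 (adjusted p = 0.832), higher in 5 lines and lower in 6.

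Cell type markers were counted in the same comparison, where 69.1% of all genes passed. As shares, 60.0% of the neuron and 50.0% of the muscle markers passed, below that of all genes. Of the photoreceptor, glia and fat body markers 100%, 83.3% and 80.0% passed. Of 5 neuron markers 3 were lower in tra2 XX and none was higher (median log2 fold change −0.61), 6 of 6 photoreceptor markers and 5 of 6 glia markers were higher, 2 of 4 muscle markers were lower, and of 5 fat body markers 3 were lower and 1 was higher. Summed neuron markers ranged over all conditions from 9657 to 18956 normalized read counts in tra2 XX and from 8498 to 21499 in XX. Summed photoreceptor markers ranged from 113298 to 378294 in tra2 XX and from 177752 to 399386 in XX. No marker of either list was at 0 in a condition. With the summed neuron markers as a covariate, an alternative chosen after the data had been seen, the same 7 genes passed, where 6404 of 11391 genes did. Clk was then at −0.89, cry at 0.67, Pdp1 at −0.40, cwo at −0.46 and tim at −0.26. The part of the other marker lists was not tested.

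In the 19 X Df lines the same comparison gave 4 of 8 genes, where 54.8% of all genes passed (26.3% higher, 28.5% lower). cry was higher in 19 of 19 lines, with a log2 fold change of 0.49 ± 0.06 (adjusted p = 3.7e-07, edgeR). It stood at 1235 to 1853 normalized read counts in tra2 XX (median 1629) and at 833 to 1701 in XX (median 1212). Clk was lower in 16 of 19 lines, at −0.43 ± 0.09, with 126 to 247 in tra2 XX (median 165) and 121 to 313 in XX (median 237). Pdp1 was at −0.25 ± 0.09 and vri at 0.22 ± 0.05, both past the threshold, while tim (−0.16 ± 0.09) and cwo (−0.13 ± 0.09) did not pass. Without the 3 lines Df(1)ED6878/+, Df(1)ED6906/+ and Df(1)ED6443/+, whose XX heads were lowest in tim, both of these passed, at −0.28 and −0.26, and Clk was at −0.57. The Pdp1 call was lost without replicate 1 or replicate 3, at −0.23 and −0.18. In the X Df lines 2 of 5 neuron markers (40.0%) were lower and 4 of 6 photoreceptor markers (66.7%) higher in tra2 XX. Of 6 glia markers 5 were higher and 1 lower, and of 5 fat body markers 3 were lower and 1 higher. Of 4 muscle markers 3 were lower. With the summed neuron markers as a covariate 5 clock genes passed, where 6225 of 10927 genes did. They were cry at 0.43, Clk at −0.31, vri at 0.24, Pdp1 at −0.13 and cyc at −0.10. The part of the other marker lists was not tested.

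A test of the difference between the line sets found larger changes in the 3L than in the X Df lines for 4 genes, where 17.8% of all genes differed (8.71% with a positive and 9.10% with a negative difference). The difference of log2 fold changes, 3L minus X, was −0.59 ± 0.14 for Clk, −0.46 ± 0.14 for Pdp1, −0.39 ± 0.12 for cwo and 0.25 ± 0.09 for cry (adjusted p = 0.00559, 0.0210, 0.0287 and 0.0498, edgeR). Without replicate 1 or replicate 2, Clk was the 1 clock gene that passed, where 1192 of 10766 and 846 of 10651 genes did. The cry difference also missed the threshold without the 3 lines with the lowest tim in XX (0.17) and with neuron markers as a covariate (0.17), where Clk (−0.46), Pdp1 (−0.32), cwo (−0.29) and cyc (−0.17) passed.

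In w1118 heads 5 of the 8 genes passed between tra2 XX and XX, where 17.5% of all genes did (10.4% higher, 7.10% lower). The change of per was 1.33 ± 0.13 on the log2 scale, a fold of 2.51 (adjusted p = 1.6e-06, edgeR), which 6.26% of genes exceeded. It passed without any 1 of the 6 libraries. Clk was at 159, 155 and 164 normalized read counts in tra2 XX, against 252, 218 and 262 in XX (log2 fold change −0.60 ± 0.15). For cry the values were 1338, 1022 and 1190 in tra2 XX, against 838, 875 and 760 in XX (0.53 ± 0.16). cwo (−0.57 ± 0.19) and Pdp1 (−0.49 ± 0.16) were lower, while tim (−0.07 ± 0.16), vri (0.12 ± 0.13) and cyc (0.11 ± 0.10) did not pass. The count fell to 2 without XX replicate 1, XX replicate 3 or tra2 XX replicate 3, and to 3 without XX replicate 2 or tra2 XX replicate 2. Here 3 of 6 photoreceptor markers were lower, 2 of 6 glia markers were higher (alrm 2.58, nrv2 1.10) and 2 of 5 fat body markers, the yolk protein genes Yp1 and Yp2, were lower. Of the 5 neuron markers 0 passed, at a median log2 fold change of −0.54, and of the 4 muscle markers 0. The part of these markers was not tested.

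**Figure D3:**
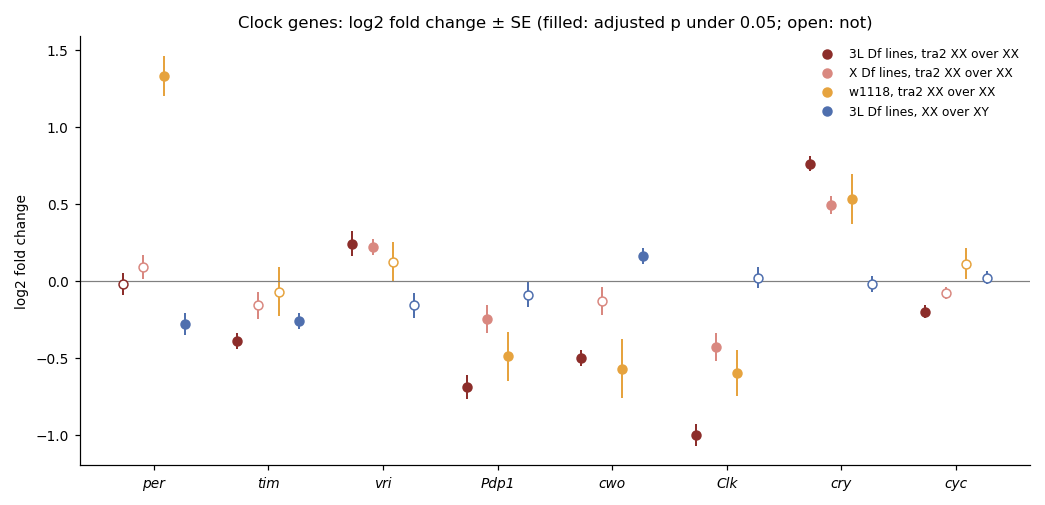
Log2 fold change of each clock gene with its SE for tra2 XX over XX in 3L Df lines, X Df lines and w1118, and for XX over XY in 3L Df lines, filled where the adjusted p was under 0.05. Clk lies below 0 (−1.0, −0.43 and −0.60) and cry above 0 (0.76, 0.49 and 0.53) in all 3 tra2 comparisons, and per stands apart at 1.33 in w1118.

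With the tra2 alleles in both karyotypes, tra2 XX over tra2 XY in w1118, 0 of 8 genes passed in edgeR and 0 in DESeq2, and 0.421% of all genes passed. At an unadjusted p under 0.05 there was 1, per, at 0.33 ± 0.13. The tra2 XY libraries were spread widely for tim, at 3445, 5730 and 5431 normalized read counts, around the tra2 XX values of 4185, 4082 and 4035.

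Females and males were compared in the 3L Df lines, in a fit that shares the XX libraries with the tra2 comparison above. XX heads had less per and tim and more cwo than XY heads, 3 of 8 genes, where 52.5% of all genes passed (23.8% higher, 28.7% lower). per was at 514 to 711 normalized read counts in XX (median 568) and at 635 to 806 in XY (median 706), with a log2 fold change of −0.28 ± 0.07 (adjusted p = 0.00127, edgeR). For tim it was −0.26 ± 0.05, with 2960 to 4679 in XX and 3928 to 5526 in XY, and for cwo 0.16 ± 0.05, with 662 to 890 in XX and 613 to 786 in XY. per and tim were lower, and cwo higher, in 10 of 11 lines each. The genes with the strongest tra2 changes were near 0, Clk at 0.02 ± 0.07 and cry at −0.02 ± 0.05. Of 5 neuron markers 4 were lower in XX, as were 5 of 6 glia and 4 of 6 photoreceptor markers, while 5 of 5 fat body markers were higher. With the summed neuron markers as a covariate none of the 3 genes passed (per 0.05, tim −0.04, cwo 0.24) while Pdp1 did, at 0.45. In that fit 2586 of 11391 genes passed. The cwo call was also lost without replicate 1 or 2, at 0.10 and 0.13.

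In w1118 the same comparison gave 1 of 8 genes, where 9.39% of all genes passed (4.95% higher, 4.44% lower). vri was at 905, 882 and 825 normalized read counts in XX, against 1270, 1303 and 958 in XY, with a log2 fold change of −0.44 ± 0.13 (adjusted p = 0.0346, edgeR). The call held in 1 of the 6 fits without a single library, that without XY replicate 3. The remaining genes had log2 fold changes between −0.27 for per and 0.47 for cwo. Of the cell type markers, 3 of 6 glia markers were lower in XX, and 4 of 5 fat body markers and 1 of 4 muscle markers were higher. Of the neuron and photoreceptor markers 0 passed. The part of the markers was not tested.

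The wild-type strain OreR was set against w1118 in both sexes. Clk and cyc, the genes of the 2 activator subunits, were lower in OreR in each. In XX 3 of 8 genes passed, where 12.8% of all genes did (7.02% higher, 5.74% lower), and in XY 2, where 13.2% did (7.01% higher, 6.16% lower). In XX, Clk was at 171, 153 and 171 normalized read counts in OreR, against 252, 218 and 262 in w1118 (−0.56 ± 0.15). cyc was at 208, 208 and 231 in OreR XX, against 301, 268 and 330 in w1118 XX (−0.47 ± 0.10). vri was higher, with 1267, 1679 and 1350 in OreR XX, against 905, 882 and 825 in w1118 XX (0.72 ± 0.13, adjusted p = 6.8e-04, edgeR). In XY, Clk was at 174, 124 and 187 in OreR, against 252, 240 and 193 in w1118 (−0.50 ± 0.15), and cyc at 219, 222 and 228 in OreR, against 255, 277 and 317 in w1118 (−0.34 ± 0.10). OreR and w1118 libraries did not overlap for either gene in either sex. In XX those of Pdp1 and cwo did not overlap either, though neither gene passed. The share of all genes without overlap was not counted. Among cell type markers, muscle Act88F was lower in OreR in both sexes (−2.62 in XX, −2.81 in XY), muscle Mlc2 was lower in XY (−1.17) and glial alrm was higher in XX (1.79). No neuron, photoreceptor or fat body marker passed in edgeR in either sex, and the part of the muscle and glia markers was not tested. The Clk call in XX was lost without OreR replicate 2, w1118 replicate 1 or w1118 replicate 3, and in XY without either strain's replicate 2 both calls were lost. Without any other single library of the XY comparison, 1 of the 2 genes passed. For vri, the difference between the sexes in the OreR effect was 0.53 ± 0.18 and did not pass (adjusted p = 0.488, edgeR; 0.00980% of all genes passed).

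Across all lines, the lowest vri condition in each of tra2 XX, XX and XY was w1118, at 944, 871 and 1177 normalized read counts. The lowest cry and cyc conditions of XX (751 and 216) and of XY (814 and 223) were OreR.

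Whether the clock genes moved together between lines was measured over condition means of log2(normalized read count + 1), with Pearson's r for the 28 pairs of genes in each karyotype. A two-sided permutation test was used, in which 1e-05 is the smallest p, with Benjamini-Hochberg adjustment over the 28 pairs. In XX 15 pairs passed, 11 positive and 4 negative. In tra2 XX 14 passed, 8 positive and 6 negative, and in XY 3, 2 positive and 1 negative.

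The strongest relations in XX were among tim, Pdp1 and cwo. Pdp1 and cwo had r = 0.94 (rho = 0.88; 0.90 without the 2 conditions farthest from the median), tim and Pdp1 0.92 (0.87; 0.85) and tim and cwo 0.89 (0.82; 0.81), each with an adjusted permutation p of 4.67e-05 over 33 conditions. per joined them more loosely, with r = 0.58 to tim (rho = 0.52; 0.72 without the 2 farthest; adjusted permutation p = 0.00165). vri did not pass with any of them in XX, with r from 0.24 for per to 0.36 for cwo.

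Clk, of opposite phase to these genes in a cycling head, ran with them. Its r was 0.85 with cwo, 0.82 with Pdp1 and 0.72 with tim in XX (adjusted permutation p at most 7.00e-05, n = 33), and 0.85, 0.80 and 0.65 in tra2 XX (at most 0.000140, n = 32). In XY, Clk and cwo had r = 0.92 (rho = 0.86; adjusted permutation p = 0.000840, n = 13), and 0.77 without the 2 farthest. On normalized read counts, cry, of the same phase as Clk, ran against most of them in tra2 XX and XX. Its r with tim was −0.66 in tra2 XX and −0.72 in XX, with Pdp1 −0.68 and −0.73, and with Clk itself −0.49 and −0.47. On the FPKM scale these relations were weak in XX and changed sign in tra2 XX. There the r of cry with tim was 0.22 in tra2 XX and −0.23 in XX, with Pdp1 0.22 and −0.17, and with Clk 0.43 and −0.10. In XY the cry pair that passed was per with cry, at r = −0.83 (rho = −0.80; −0.88 without the 2 farthest; adjusted permutation p = 0.00238). On the FPKM scale that pair was at 0.11. cyc passed with Clk in XX (0.43), and with vri in tra2 XX at −0.75, which was −0.55 without the 2 farthest conditions.

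**Figure D4:**
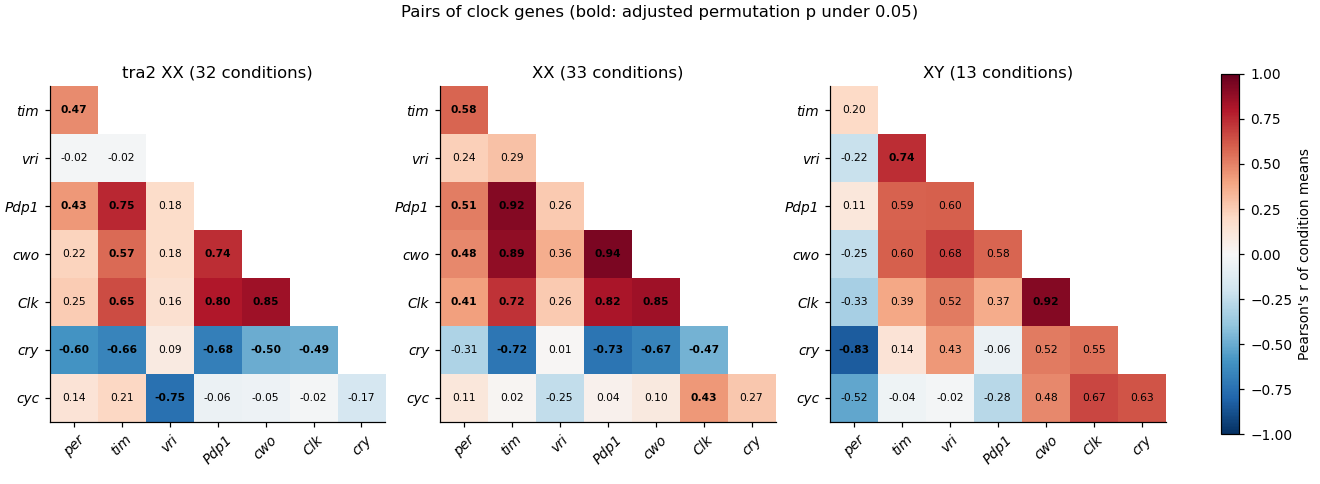
Pearson's r of condition means for the 28 pairs of clock genes in tra2 XX (32 conditions), XX (33) and XY (13), red for positive and blue for negative, bold where the adjusted permutation p was under 0.05. tim, Pdp1, cwo and Clk form a positive block in tra2 XX and XX (0.57 to 0.94) and the cry row is negative against them. On the FPKM scale tim with cry is at 0.22 in tra2 XX and −0.23 in XX.

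At the low end of these relations stood 3 lines. In XX, Df(1)ED6878/+, Df(1)ED6906/+ and Df(1)ED6443/+ had the lowest tim, at condition means of 1696, 2118 and 2245 normalized read counts, the lowest Clk, at 121, 139 and 133, and the highest cry, at 1701, 1490 and 1637. In Df(1)ED6878/+ XX the 3 libraries had 1559, 1755 and 1773 for tim and 1718, 1677 and 1708 for cry, so that tim was low in the whole condition and not in 1 library. The same 3 lines had the lowest summed neuron markers of the 33 XX conditions, 9841, 8498 and 11340 against 13329 to 21499 in the others, and the highest summed photoreceptor markers, 399386, 360574 and 323605 against 177752 to 305215. Summed glia markers were 27791, 19855 and 27059, against 12828 to 22396 in the others, so Df(1)ED6906/+ lay within that range. In tra2 XX the 3 lines were not low: tim was at 2884, 2906 and 2796, near the median of 2924, and their neuron sums ranked 19, 26 and 11 of 32. Without these 3 lines, 7 pairs passed in XX, all positive. The r of tim was then 0.80 with Pdp1, 0.74 with cwo, 0.36 with Clk and −0.44 with cry, and that of Clk with cry 0.04.

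**Figure D5:**
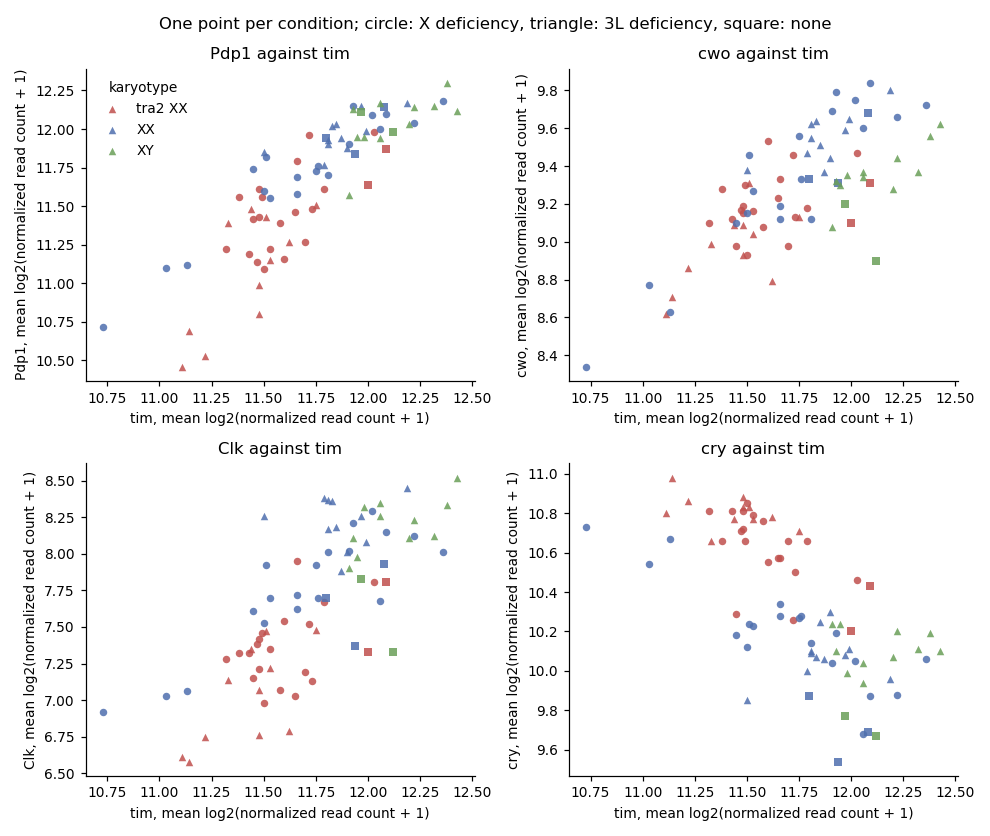
Condition means of log2(normalized read count + 1) of Pdp1, cwo, Clk and cry against tim, red for tra2 XX, blue for XX and green for XY, with circles for X Df, triangles for 3L Df and squares for no Df. The 3 blue circles at the far left of each panel are the XX lines with the lowest tim (1696 to 2245 normalized read counts), low in Pdp1, cwo and Clk and high in cry.

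The relations depended on the line set. Over the 19 X Df lines, which include these 3, 4 pairs passed in tra2 XX and 17 in XX, and over the 11 3L Df lines 9 passed in tra2 XX and 0 in XX by the permutation test. The r of tim with Clk over the X Df lines was 0.45 in tra2 XX and 0.88 in XX, and over the 3L Df lines 0.68 in tra2 XX and 0.05 in XX. That of tim with cry over the X Df lines was −0.47 in tra2 XX and −0.86 in XX, and over the 3L Df lines −0.44 in tra2 XX and 0.29 in XX. Of the 28 pairs, 13 had positive and 5 negative r in each of the 5 combinations of karyotype and line set, and 10 changed sign. The scale also mattered. On log2(FPKM + 1), 22 pairs passed for tra2 XX, 20 for XX and 16 for XY, all positive, and r of tim with cry became 0.22 in tra2 XX and −0.23 in XX. Relative to the normalized counts, the median gene of a condition was shifted on the FPKM scale by −0.38 to 0.17 in tra2 XX and by −0.33 to 0.12 in XX (log2). In XY the shift was −0.24 to 0.22. These shifts correlated with tim FPKM across conditions, at r = 0.90 in tra2 XX and 0.77 in XX, given as a description. With TMM scaling r of tim with cry was −0.59 in tra2 XX and −0.73 in XX.

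Many genes moved with tim, not only clock genes. The median absolute r with tim over 9306 expressed genes was 0.51 in XX. Pdp1 ranked 19 from the highest, cwo 166, Clk 1414 and per 2156, while cry ranked 840 from the lowest. Genes closest to tim were ATP8B (r = 0.95), asRNA:CR44029, Nipped-A, unc-13 (each 0.94) and gish (0.93), and those most opposite were Clc, p24-1, Sod2, Sec13 (each −0.92) and Idh3b (−0.91). Closest to Clk were CG10353 (0.93), Cubn (0.91), lva (0.90), Mur2B and CG14200 (0.89 each), ahead of cwo, which ranked 41. Over the XX conditions tim also ran with the summed neuron markers, at r = 0.84, and with reads on genes, at r = 0.59, both as descriptions. For Pdp1 the r with neuron markers was 0.89, for cwo 0.84, for Clk 0.67 and for cry −0.75. Other lists had r of similar size in XX. With the summed photoreceptor markers it was −0.76 for tim, −0.82 for Pdp1, −0.84 for cwo and −0.84 for Clk, and with glia markers 0.82 for cry. In XY the r with neuron markers was 0.35 for tim and −0.12 for Clk.

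The slope of each gene on the log2 level of tim was tested over all genes in edgeR. In XX 5 of 7 genes passed, where 59.2% of all genes did (28.9% positive, 30.3% negative): cwo at 0.83 ± 0.10, Pdp1 at 0.81 ± 0.08, Clk at 0.73 ± 0.17, per at 0.51 ± 0.13 and cry at −0.61 ± 0.09. In tra2 XX the same 5 passed, where 39.4% did, with Pdp1 at 0.95 ± 0.19 and cry at −0.54 ± 0.13. In XY 0 of 7 passed in edgeR, where 0.00929% of all genes did, and 1 at an unadjusted p under 0.05, vri at 0.73 ± 0.24. The only gene that passed there was tim against its own level (adjusted p = 0.0456, edgeR). This 0 thus says nothing particular of the clock genes. DESeq2 was not run for the slopes. With the summed neuron markers as a covariate, 3 of the 5 passed in XX (Pdp1, cwo and Clk), where 3315 of 11033 genes did. In tra2 XX 0 passed with it, where 8 of 9969 genes did, so this 0 says nothing particular of the clock genes. Without the 3 low lines 2 passed in XX, Pdp1 and cwo, where 3018 of 10826 genes did. Clk was then at 0.05, per at 0.39 and cry at −0.30. Over the X Df lines alone, 1 gene passed in tra2 XX, where 1429 of 10035 genes did, and 6 in XX, where 6758 of 10687 did. Over the 3L Df lines alone 0 clock genes passed in tra2 XX, where 3 of 9793 genes did, and 0 in XX, where 0 of 10385 did, so that these counts say nothing particular of the clock genes. The XX slopes there were 0.44 for Pdp1, 0.41 for cwo, −0.19 for Clk and 0.28 for cry, and per (0.55) and vri (0.93) had an unadjusted p under 0.05 in edgeR. In tra2 XX per (1.26), Pdp1 (1.15), vri (0.87) and Clk (0.77) did.

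Replicates of a condition also differed in clock genes, and together. Each library's deviation from its condition mean was taken, over 96 tra2 XX, 97 XX and 39 XY libraries. Among per, tim, vri, Pdp1 and cwo the r of deviations was 0.07 to 0.78 in tra2 XX, 0.48 to 0.84 in XX and 0.77 to 0.93 in XY. Clk deviated with them in all 3 karyotypes, at 0.18 to 0.87, 0.32 to 0.77 and 0.61 to 0.77, and against cry, at −0.78, −0.58 and −0.42. As descriptions over libraries that share a condition and differ in depth, these carry no test. The libraries farthest from their condition were Df(3L)ED4475/+ tra2 XX replicate 1, at −1.70 for Clk, −1.39 for Pdp1 and 0.62 for cry, and Df(3L)ED4475/+ XY replicate 2, at −1.26 for Pdp1 and −0.80 for tim. They had 667146 and 1381962 reads on genes, and were among the 3 shallowest libraries. The next farthest were deeper. Df(1)ED7170/+ XX replicate 2, at −1.16 for Clk, had 3892618 reads. Df(3L)ED4457/+ tra2 XX replicates 1 and 2, at −1.07 and 1.19 for Clk and −1.34 and 1.11 for Pdp1, had 8493269 and 8024118. Df(3L)ED4287/+ XX replicate 1, at −0.76 for Clk, had 8963525.

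Other clock genes were counted in lists of kinases and turnover factors, cycling outputs, and inputs with clock neuron genes. Between tra2 XX and XX in the 3L Df lines, 9 of 14 kinase and turnover genes passed, 1 higher and 8 lower, at a median log2 fold change of −0.18, where the median of all genes was −0.02 and 69.1% of all genes passed. The lower ones included tyf, whose product promotes per translation (−0.74 ± 0.09), CkIIbeta, the regulatory subunit of casein kinase 2 (−0.59 ± 0.06), CtBP, a corepressor (−0.55 ± 0.05) and CkIalpha (−0.46 ± 0.07), while CkIIalpha, the catalytic subunit, was higher (0.29 ± 0.04). Of 14 outputs tested 12 passed, 9 higher and 3 lower, at a median of 0.17. The largest were Cyp4d21 (4.0 ± 0.12), CG9377 (3.22 ± 0.23) and to, takeout (2.45 ± 0.12), all higher, and Achl (−1.05 ± 0.06) and Cyp18a1 (−1.02 ± 0.05), both lower. The outputs Cyp4d21 and to are also known for male-biased expression in the head. Of 15 inputs and clock neuron genes 10 passed, 7 higher and 3 lower. As shares, 64.3% of the kinase and turnover genes and 66.7% of the inputs passed, near the 69.1% of all genes, so these counts say nothing particular of either list, and 85.7% of the outputs did. Pdf, the neuropeptide of the ventral lateral clock neurons, was higher (1.57 ± 0.07), as were Dh31 (1.05 ± 0.06) and sNPF (0.82 ± 0.05), and the sodium leak channel partners unc80 (−0.96 ± 0.07) and unc79 (−0.94 ± 0.06) were lower. In XX over XY, 4 of 14 kinase and turnover genes, 10 of 14 outputs and 11 of 15 inputs passed, or 28.6%, 71.4% and 73.3%, where 52.5% of all genes did, with Cyp4d21 at −3.72 ± 0.12, Dh31 at −0.63 ± 0.06 and Pdf at −0.59 ± 0.07.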

How the data were processed

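The 8 genes and the lists of other clock genes and cell type markers were chosen with earlier results of these data known. Per the methods of the study, reads were aligned by the authors with TopHat2 2.0.10 to release 5 of the fly genome after base calling in CASAVA 1.8.2. The deposited raw counts came from HTSeq 0.5.4p1. The deposited normalized read counts, a signal scaled to a common depth by the authors with DESeq2 1.6.3, are the levels printed. The deposited FPKM values came from Cufflinks 2.1.1 and were used for levels between genes and as an alternative scale, for 17062 genes. Of 249 labelled libraries, the 235 in the study's reduced tables were analysed. Lines that name no gene (5, with 7.12% of reads) and 96 spike-ins (1.19%) were left out, and 0 columns mapped to no sample.

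Raw counts were tested with edgeR 4.0.16 (TMM factors, low-count filter, quasi-likelihood F test) in R 4.3.3, and adjusted p-values printed are Benjamini-Hochberg values over all genes tested. Comparisons across Df lines used counts summed per condition with the line as a block, and those of lines without a Df used single libraries of all no-Df groups. Standard errors were derived from the fold change and its F. Correlations used python 3.11.15 and scipy 1.17.1, 100000 permutations and a pseudocount of 1, over genes with a median above 6 normalized read counts where genes were ranked. Alternatives were DESeq2 1.42.0, RLE factors, no filter, other sample sets, scales and pseudocounts, single libraries, a replicate block and leaving out replicates. All 8 genes were named, with up to 5 genes per list and comparison past the threshold, largest change first, and the 5 genes most and least like tim and Clk. Of the 17142 identifiers 16815 were found in the BDGP6 annotation, used for names, chromosome arms and gene order only. The procedure was tested on simulated data.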

Additional observations from a re-analysis of the deposited data

Results flagged for a closer look

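The change between tra2 XX and XX heads differed between the 3L and the X Df lines for 4 of the 8 clock genes, by a test of the difference itself in edgeR. The difference of log2 fold changes, 3L minus X, was −0.59 for Clk, −0.46 for Pdp1, −0.39 for cwo and 0.25 for cry. The log2 fold change of Clk was −1.0 in the 3L lines and −0.43 in the X lines. The adjusted p of cry, 0.0498, was next to the threshold. In the X lines the Df stood over the w1118 X chromosome, and in the 3L lines the Df was autosomal, and these properties of the line sets cannot be told apart. Of the photoreceptor markers 3 of 6 (50.0%), and of the neuron markers 1 of 5 (20.0%), passed the same test, where 17.8% of all genes did. The neuron count, near that share, says nothing particular of its list. With the summed neuron markers as a covariate Clk (−0.46), Pdp1 (−0.32) and cwo (−0.29) still passed and cry (0.17) did not. The part of the photoreceptor markers was not tested.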

How the results depend on the processing

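Of 932 alternatives of 93 single-gene values, 834 kept direction and side of the threshold, 77 fell below it, 14 passed it and 7 changed sign. In w1118 tra2 XX over XX, the count of clock genes past the threshold was 3 in place of 5 with only the w1118 libraries, and in 3L XX over XY it was 1 in place of 3 with neuron markers as a covariate, where per (0.05) and Pdp1 (0.45) changed sign. In w1118 XX over XY it was 0 in place of 1 with no filter and with only the w1118 libraries. In XY OreR over w1118 it was 1 with no filter and 0 with only both groups, in place of 2. Among lines it was 2 in tra2 XX and 0 in XY with only Df lines, and 6 in XY without the 3 shallowest libraries. For the relation to tim it was 0, 3 and 2 in XX over 3L lines, with neuron markers, and without the 3 low lines. In tra2 XX it was 1, 0 and 0 over X lines, over 3L lines and with neuron markers. Slopes that changed sign were Clk (−0.19) and cry (0.28) in XX over 3L lines, and in tra2 XX per over X lines (−0.21), vri over Df lines (0.48) and Clk with neuron markers (−0.01). Correlated pairs numbered 0 in XX over 3L lines and 7 without the 3 low lines. In tra2 XX they numbered 22 on FPKM, 4 over X lines and 9 over 3L lines, and in XY 16 on FPKM, 5 with TMM and 5 over Df lines. The counts over all genes moved too: with neuron markers, 2586 in place of 5798 genes passed in 3L XX over XY, 3315 in place of 6530 were related to tim in XX and 8 in place of 3923 in tra2 XX. Without the 3 low lines 3018 in place of 6530 were related to tim in XX. Without the 3 shallowest libraries 3828 in place of 2329 passed among XY lines. The cause of these changes was not tested.

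Leaving out 1 replicate gave 6 to 7 clock genes in 3L tra2 XX over XX, 3 to 5 in X tra2 XX over XX, 2 to 4 in w1118 tra2 XX over XX, 2 to 3 in 3L XX over XY, 0 to 1 in w1118 XX over XY, 2 to 3 in XX OreR over w1118 and 0 to 1 in XY OreR over w1118. It gave 3 to 8 among XX lines, 2 to 4 among tra2 XX lines, 0 to 2 among XY lines, 5 to 6 and 4 to 5 for the relation to tim in XX and tra2 XX, and 1 to 4 for the difference between line sets. Correlated pairs ranged from 14 to 18 in XX, 11 to 18 in tra2 XX and 2 to 8 in XY. The alternatives with neuron markers, without the 3 lines, without Df(1)ED6630/+ and without the 3 shallowest libraries, and all of those for the difference between line sets, were chosen after seeing the data. For the relations in XY, X Df lines could not be run because no such condition exists, and 3L Df lines are the same set as all Df lines.

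With the replicate number as a block, 3 clock genes (per, Clk and cry) in place of 5 passed in w1118 tra2 XX over XX, and no other count moved by over 1.5 times. The numbers did not pair the samples: correlations of same-numbered deviations ran from −0.30 to 0.35 in the lines without a Df, and 15 of 89 pairs of tra2 XX and XX and 8 of 33 of XX and XY exceeded 0.1. Depth limits Clk most, with 2 reads in its lowest library.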
